A study of Mus musculus with 4 samples.

Results

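A group of 9 genes that mark oligodendrocyte precursor cells and the first steps of their differentiation was followed in the hippocampus of mice after an open tibial fracture: Pdgfra, Cspg4, Gpr17, Sox10, Olig1, Olig2, Bmp4, Enpp6 and Tcf7l2. They were chosen by name, with earlier results of these data known, and all 9 were found by symbol among the 29300 genes of the deposited count table. All 9 passed the filter on low counts. The hippocampus of C57BL/6 male mice aged 7 to 8 months was taken on day 1 post-surgery. The 2 control mice were sham animals that received isoflurane anesthesia and tramadol analgesia, and the 2 surgery mice received the same anesthesia and analgesia with an open fracture of the tibia fixed by an intramedullary nail. The study compared them as a model of perioperative neurocognitive disorder (PND). Whole hippocampal tissue was used and no cell type was isolated.

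Oligodendrocyte precursor cells divide and migrate throughout the brain, and some of them stop dividing, pass through a short committed stage and become myelinating oligodendrocytes. PDGF-A acting on its receptor Pdgfra keeps precursors dividing, the bHLH factors Olig1 and Olig2 and the HMG-box factor Sox10 set the identity of the lineage, and BMP and Wnt signals are known to hold differentiation back. In the adult hippocampus these cells are a small part of the tissue, so each of these mRNAs is measured against a large background of neuronal and astrocytic RNA.

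Total counts per mouse ran from 15763432 to 18573386, with 24238 to 25324 genes detected, and the 9 genes together received 6978 and 6827 counts in control mice 1 and 2 and 5465 and 4943 in surgery mice 1 and 2. All 6 genes marking hippocampal neurons (Prox1, Neurod6, Zbtb20, Wfs1, C1ql2 and Fibcd1) were detected in every mouse. Choroid plexus markers stood at a summed level of 127 CPM (counts scaled to a library total of 1000000) in control mouse 1 and between 2027 and 5423 CPM in the other mice, and the part of this in the results was not tested. Of 17144 genes tested with edgeR's quasi-likelihood test, 2201 were lower (12.8%) and 2249 higher (13.1%) after surgery at an adjusted p under 0.05. These calls moved with base composition: across 17120 genes with known sequence, Spearman's rho between the GC content of a gene's transcripts and its log2 fold change was -0.64, as a description across genes that are not independent replicates. Results for the 9 genes are therefore also given after smooth trends with transcript length and with GC content had been taken out library by library, a correction under which 289 genes (1.69%) passed in either direction.

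RefSeq (GRCm38.p6) windows from 250 bases before to 50 bases after the transcription start were found for 6 of the 9 genes, in 7 windows because Tcf7l2 has 2 starts. No window was matched for Sox10 and Olig1, and Gpr17 was left out of this step. The windows of the lowered genes Olig2 and Cspg4 and of Pdgfra, whose level did not pass the test, are printed 5′ to 3′ with CG dinucleotides in capitals. They show how these start sites differ in base composition. The Olig2 window (chr16:91225300-91225599, + strand) has a GC content of 65% and 25 CG dinucleotides, the Cspg4 window (chr9:56864854-56865153, + strand) 60% and 17, and the Pdgfra window (chr5:75152001-75152300, + strand) 51% and 5.
Olig2: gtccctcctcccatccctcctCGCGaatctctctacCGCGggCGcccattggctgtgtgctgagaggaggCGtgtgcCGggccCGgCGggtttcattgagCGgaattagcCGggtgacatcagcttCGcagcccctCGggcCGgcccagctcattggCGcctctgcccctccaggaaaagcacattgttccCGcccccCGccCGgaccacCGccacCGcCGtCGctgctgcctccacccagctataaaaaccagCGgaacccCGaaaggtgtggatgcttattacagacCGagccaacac
Cspg4: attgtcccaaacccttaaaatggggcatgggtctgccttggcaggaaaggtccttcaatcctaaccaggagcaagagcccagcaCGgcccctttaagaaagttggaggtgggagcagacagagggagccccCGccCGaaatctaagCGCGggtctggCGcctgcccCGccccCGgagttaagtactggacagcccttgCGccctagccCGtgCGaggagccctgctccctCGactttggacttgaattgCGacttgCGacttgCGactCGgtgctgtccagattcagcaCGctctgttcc
Pdgfra: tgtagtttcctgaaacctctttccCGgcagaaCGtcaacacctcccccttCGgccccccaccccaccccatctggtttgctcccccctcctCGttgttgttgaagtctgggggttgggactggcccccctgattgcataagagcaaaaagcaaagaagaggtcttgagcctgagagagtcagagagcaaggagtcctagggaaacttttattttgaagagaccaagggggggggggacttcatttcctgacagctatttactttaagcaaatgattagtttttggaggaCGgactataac

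Across all 32851 windows the median GC content was 52.7% and the median number of CG dinucleotides was 7. The Bmp4 window held 12 CG dinucleotides at a GC content of 64% and the Enpp6 window 4 at 40.3%. The windows of Tcf7l2 held 34 and 7. Short motifs were searched on both strands. The E-box letters CANNTG, the kind of site that bHLH factors such as Olig1 and Olig2 bind, were in 2 of the 7 windows and in 72.3% of all windows. The SOX-type letters ACAAAG were in 1 of 7 and in 18.7% of all windows. For TCF/LEF-type sites only the letters CTTTGA were counted, in 0 of 7 and in 16% of all windows. On the other strand ACAAAG reads CTTTGT, which differs from CTTTGA in its last letter alone.

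After surgery, 3 of the 9 genes were lower at an adjusted p under 0.05 and none was higher. They were Olig2, Olig1 and Cspg4, at 0.612, 0.745 and 0.739 of their control levels. The count of 3 in 9 stands beside 12.8% of all genes called lower, and beside 40.9% of the genes whose GC content lay within the range of these 3. After the length and GC correction 0 of the 9 passed, beside 1.69% of all genes in either direction. The same 3 genes had an unadjusted p under 0.05, as did 6748 of the 17144 genes tested. Both surgery mice lay below both control mice for these 3 genes, an arrangement held by 32.2% of all genes tested, and 0 of the 9 had both surgery mice above both control mice, against 33.2%. With 2 mice in each group, an exact two-sided permutation test of a single gene cannot go below p = 0.33, so p-values are those of the fit across all genes. In bulk tissue, fewer cells of a type and less RNA per cell cannot be told apart.

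**Figure D1:**
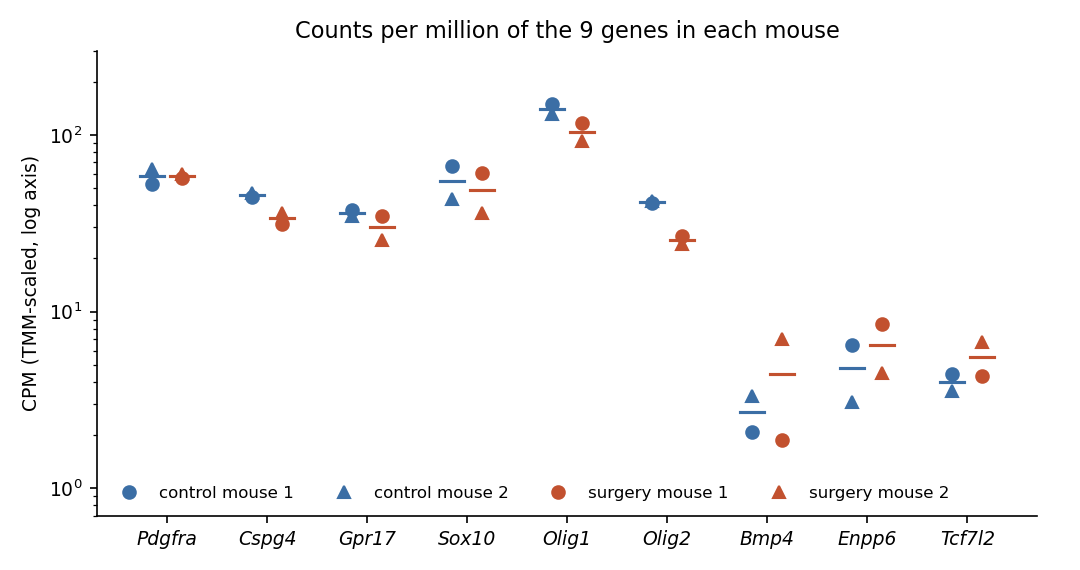
TMM-scaled CPM (vertical log axis) of each of the 9 genes in the control mice (blue) and surgery mice (red), with circles for mouse 1, triangles for mouse 2 and a line at each group mean. For Olig2, Olig1 and Cspg4 both surgery mice lie below both control mice, and for the other genes the groups overlap.

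Olig2, a bHLH transcription factor that specifies the oligodendrocyte lineage and stays on at all of its stages, had the largest fall. It stood at 41.0 and 42.6 CPM in control mice 1 and 2 and at 27.0 and 24.2 CPM in surgery mice 1 and 2. The mice of each group lay close together and the groups were well apart. The mean fell from 41.8 ± 1.08 to 25.6 ± 1.93 CPM (SD, n = 2 each), a log2 fold change of -0.71 (SE 0.09, 95% interval -0.94 to -0.48, adjusted p = 0.0055). Olig2 was the member among the 9 whose fold change was also at or under 0.67, a limit that 386 genes (2.25%) called lower passed. After the length and GC correction its log2 fold change was -0.43 with an adjusted p of 0.077.

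Olig1, its neighbour, is a bHLH factor needed for the maturation of oligodendrocytes. Olig2 lies at chr16:91225550-91228677 and Olig1 at chr16:91269772-91271933 (mm10), both on the + strand with 41094 bases between them. Olig1 stood at 149 and 131 CPM in the control mice and at 117 and 92.0 CPM in the surgery mice. The mice of each group differed more for this gene than for Olig2, and the groups still did not overlap. The mean fell from 140.3 ± 12.9 to 104.5 ± 17.7 CPM (SD, n = 2 each), a log2 fold change of -0.43 (SE 0.12, 95% interval -0.72 to -0.13, adjusted p = 0.049). This call lay at the threshold: the adjusted p was 0.063 with scaling to library totals and 0.70 after the length and GC correction, where the log2 fold change was -0.10. Without surgery mouse 2 the log2 fold change was -0.26 (adjusted p = 0.11), and without control mouse 1 it was -0.33 (adjusted p = 0.13).

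Sox10, which acts with Olig2 in specifying the lineage and later switches on myelin genes, did not pass the test. It stood at 66.6 and 43.7 CPM in control mice 1 and 2 and at 60.8 and 36.3 CPM in surgery mice 1 and 2. Mouse 1 was the higher of its group in both, 1.53 times mouse 2 among control mice and 1.67 times among surgery mice. The groups overlapped, and the log2 fold change was -0.18 (SE 0.27, 95% interval -0.84 to 0.48, adjusted p = 0.66). Its sign turned to 0.16 with the length and GC correction. Single mice also turned it, to 0.15 without control mouse 1 and 0.15 without surgery mouse 2, and the value was -0.61 without surgery mouse 1 and -0.46 without control mouse 2.

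Of the surface molecules of precursor cells, Cspg4 was lower and Pdgfra did not pass the test. Cspg4 encodes the NG2 proteoglycan, carried by precursor cells and by pericytes of small vessels. It stood at 44.3 and 47.1 CPM in the control mice and at 31.2 and 36.3 CPM in the surgery mice, with both surgery mice below both control mice. The mean fell from 45.7 ± 1.95 to 33.7 ± 3.65 CPM (SD, n = 2 each), a log2 fold change of -0.44 (SE 0.10, 95% interval -0.68 to -0.19, adjusted p = 0.025). The log2 fold change was -0.16 with an adjusted p of 0.38 after the length and GC correction. Without surgery mouse 1 the adjusted p was 0.066, and without control mouse 2 it was 0.087.

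Pdgfra, the receptor for PDGF-A on precursor cells and also a gene of fibroblasts, stood at 52.9 and 64.3 CPM in the control mice and at 57.1 and 60.6 CPM in the surgery mice. Both surgery mice lay between the control mice. The log2 fold change was 0.01 (SE 0.11), and its 95% interval of -0.25 to 0.26 bounds the change that these 4 mice allow. Its sign was not fixed, at -0.13 without control mouse 1 and 0.15 without control mouse 2. The difference between the fold changes of Pdgfra and Cspg4 was not tested.

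The pericyte and fibroblast markers bear on these genes because precursor cells share them. Of 8 mural cell markers, Cspg4 included, 1 was higher (Rgs5, a pericyte signalling regulator, log2 fold change 0.73, adjusted p = 0.0053) and 1 lower (Cspg4), and their summed level was 302, 284, 294 and 451 CPM in control mice 1 and 2 and surgery mice 1 and 2. After the length and GC correction Rgs5 had a log2 fold change of 0.24 (adjusted p = 0.14), and 0 of the 8 passed. None of the 8 mural markers was at 0 in any mouse. Of 8 fibroblast and meningeal markers, Pdgfra included, 0 passed the test, and 7 were highest in surgery mouse 2. Their summed level was 155 and 336 CPM in the control mice and 196 and 499 CPM in the surgery mice, and their median log2 fold change was 0.88. Much of this sum was Igf2, at 33.1 and 199 CPM in the control mice and 66.8 and 245 CPM in the surgery mice. None of these 8 was at 0 either. The part of these cells in the levels of Pdgfra and Cspg4 was not tested.

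Gpr17, a receptor switched on in committed precursors and off again before myelination, stood at 37.8 and 34.8 CPM in the control mice and at 34.9 and 25.3 CPM in the surgery mice. Surgery mouse 1 lay just above control mouse 2, so the groups overlapped. The log2 fold change was -0.27 (SE 0.16, 95% interval -0.64 to 0.10, adjusted p = 0.25), and it was -0.53 when surgery mouse 1 was left out. Without surgery mouse 2 it was -0.050, so the size of the difference rested on that mouse.

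The remaining genes were measured at low counts. Enpp6, a choline-specific phosphodiesterase of newly forming oligodendrocytes, stood at 6.50 and 3.06 CPM in the control mice and at 8.53 and 4.50 CPM in the surgery mice, from 56 to 136 counts a mouse. As with Sox10, mouse 1 was the higher in each group, by 2.12 times and 1.89 times. The log2 fold change was 0.45 (SE 0.43, 95% interval -0.58 to 1.48, adjusted p = 0.48), an interval wide enough to hold a fall as well as a large rise. Without control mouse 1 it was 1.07 and without surgery mouse 2 it was 0.85, while without control mouse 2 it was -0.0089 and without surgery mouse 1 it was -0.092.

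Tcf7l2, a TCF/LEF factor of the Wnt pathway that is expressed in newly formed oligodendrocytes, stood at 4.41 and 3.56 CPM in the control mice and at 4.33 and 6.70 CPM in the surgery mice. Surgery mouse 1 lay among the control mice and surgery mouse 2 above them. The log2 fold change was 0.48 (SE 0.28, 95% interval -0.20 to 1.15, adjusted p = 0.26), and it was 0.13 without surgery mouse 2 and 0.74 without surgery mouse 1. Tcf7l2 is also a gene of thalamic neurons, and of 10 thalamus and habenula markers tested 0 passed, 7 had positive log2 fold changes, and none was at 0 in any mouse. Their summed level was 179.6 and 179.7 CPM in the control mice and 199 and 191 CPM in the surgery mice, and their part in the Tcf7l2 value was not tested.

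Bmp4, a secreted ligand made by committed precursors among other cells, stood at 2.09 and 3.34 CPM in the control mice and at 1.88 and 6.99 CPM in the surgery mice. The surgery mice were the lowest and the highest of the 4, surgery mouse 2 being 3.72 times surgery mouse 1. The log2 fold change was 0.72 (SE 0.59, 95% interval -0.69 to 2.12, adjusted p = 0.41). It was -0.53 without surgery mouse 2 and 1.34 without surgery mouse 1, so that surgery mouse 2 set both the sign and the size. Surgery mouse 2 was also the highest of the 4 in the summed fibroblast and mural markers given above, and the part of this in the Bmp4 value was not tested.

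**Figure D2:**
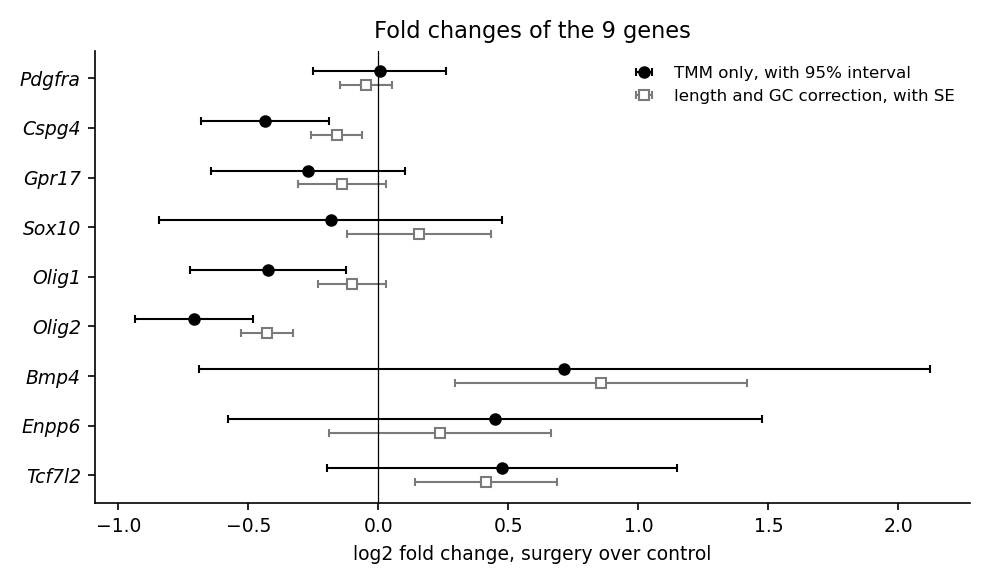
Log2 fold change, surgery over control (horizontal axis), of the 9 genes, as black circles with 95% intervals from the edgeR fit and as open squares with bars of 1 SE after the length and GC correction. The black intervals of Olig2, Cspg4 and Olig1 lie below 0, and the squares of these 3 genes lie nearer to 0.

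The GC content of the 9 genes' transcripts was set beside their fold changes. The 3 lowered genes ranged from 58.2% (Cspg4) and 58.5% (Olig2) to 61.1% (Olig1), against a median of 49.97% over all genes. The GC content of Sox10 was 62.7%, and that of the other genes ran from 46.3% (Enpp6) to 53.7% (Bmp4). Spearman's rho over the 9 genes was -0.58, a description of genes measured in the same 4 libraries. Among the 1102 tested genes within the GC range of the 3 lowered genes, 451 were called lower (40.9%), with a median log2 fold change of -0.36. Olig1 and Cspg4, at -0.43 and -0.44, lay near that median, and Olig2, at -0.71, lay below it. With the length and GC correction the log2 fold changes of the genes that had not passed before were -0.05 for Pdgfra, -0.14 for Gpr17, 0.16 for Sox10, 0.86 for Bmp4, 0.24 for Enpp6 and 0.41 for Tcf7l2. The cause of the trend with GC content was not tested.

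**Figure D3:**
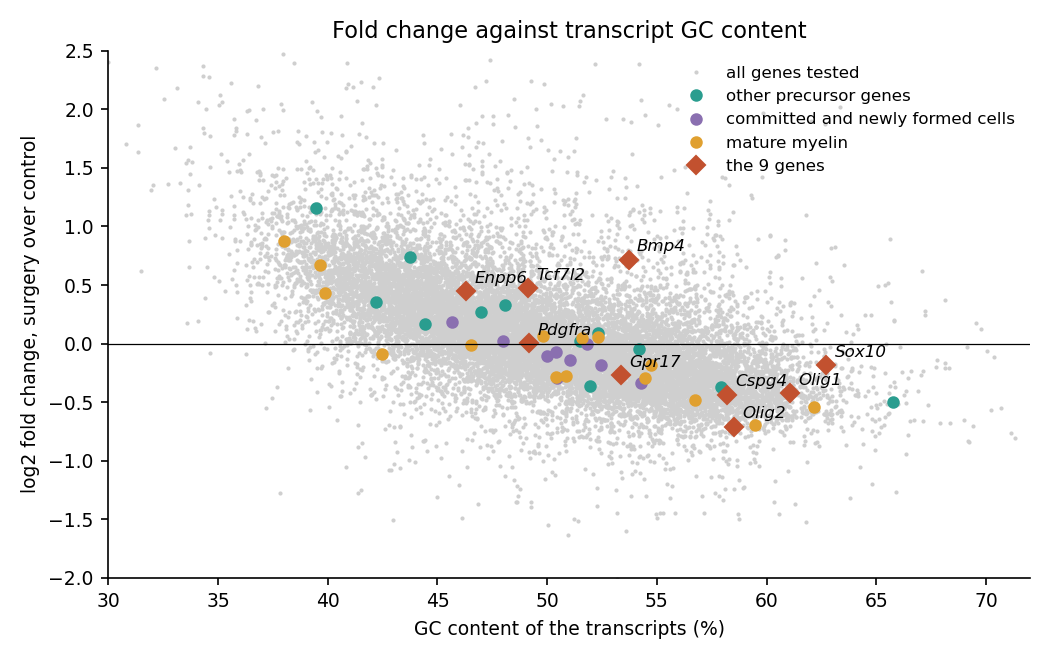
Log2 fold change, surgery over control (vertical axis), against GC content in percent (horizontal axis), for all tested genes (grey), other precursor genes (green), committed and newly formed cell genes (purple), mature myelin genes (orange) and the 9 genes (red, named). The axis limits leave out 35 genes, and the cloud falls from left to right, with Cspg4, Olig2, Olig1 and Sox10 on its GC-rich side.

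Levels were compared between genes per kilobase of exon (CPM per kb, means of the control mice with SD). Olig1 was the most abundant at 64.9 ± 5.96, followed by Sox10 at 18.1 ± 5.31 and Olig2 at 16.5 ± 0.425, which did not differ beyond the spread of Sox10. Gpr17 (6.99 ± 0.408), Pdgfra (5.85 ± 0.800) and Cspg4 (3.83 ± 0.163) formed the middle of the order, and their values did not overlap in the control mice. Bmp4 (1.21 ± 0.392), Enpp6 (0.746 ± 0.379) and Tcf7l2 (0.454 ± 0.0690) were lowest, and in these the neighbouring values overlapped. In the surgery mice Olig1 stood at 48.3 ± 8.19, Sox10 at 15.9 ± 5.66 and Olig2 at 10.1 ± 0.763 CPM per kb. Scaled to the longest transcript in place of all exons, the control levels of Pdgfra, Cspg4 and Tcf7l2 were 8.58, 5.62 and 1.07 CPM per kb, which put Pdgfra above Gpr17 and Tcf7l2 above Enpp6.

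The spread between mice of a group was itself uneven among the 9 genes. In 4 of them (Sox10, Olig1, Gpr17 and Enpp6) mouse 1 exceeded mouse 2 in both groups, as did 29.7% of all genes tested. The 15 genes of mature myelin, such as Mbp, did so in 14 cases, and their summed level was 6734 and 5804 CPM in the control mice and 6681 and 4342 CPM in the surgery mice. Mature oligodendrocyte RNA thus differed between mice of the same group in the same order as Sox10, Olig1, Gpr17 and Enpp6, and its part in their values was not tested.

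**Figure D4:**
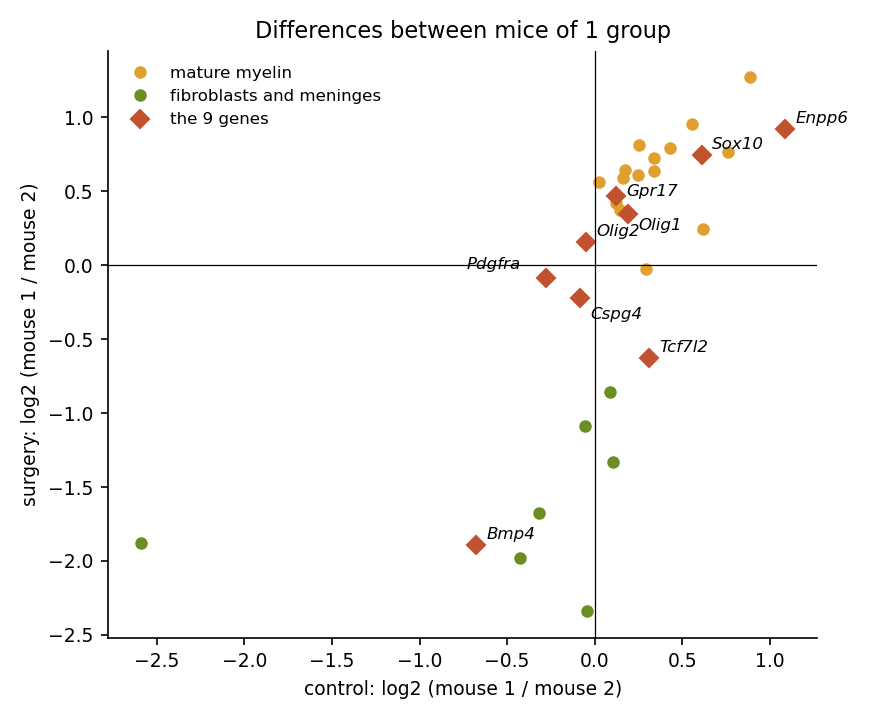
Log2 ratio of mouse 1 to mouse 2 within the control group (horizontal axis) and within the surgery group (vertical axis) for the 9 genes (red), mature myelin genes (orange) and fibroblast and meningeal genes (green). Sox10, Olig1, Gpr17 and Enpp6 lie at the upper right, where mouse 1 was higher in both groups, and Bmp4 lies at the lower left.

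Other genes of the same stages were read from lists of known markers. Of 12 further precursor genes, 3 were higher and 0 lower: Lhfpl3, a tetraspan membrane protein gene, Tmem100, a membrane protein gene linked to BMP signalling, and Ptprz1, a receptor phosphatase. Lhfpl3 stood at 6.10 and 7.33 CPM in the control mice and at 16.5 and 13.5 CPM in the surgery mice (log2 fold change 1.16, SE 0.18, adjusted p = 0.0071). Tmem100 stood at 6.27 and 5.96 CPM in the control mice and at 11.2 and 9.30 CPM in the surgery mice (log2 fold change 0.74, SE 0.18, adjusted p = 0.026). Ptprz1, at 202 and 198 against 260 and 251 CPM, had a log2 fold change of 0.35 (SE 0.06, adjusted p = 0.0081). So precursor genes were called in both directions, Olig1, Olig2 and Cspg4 lower and these 3 higher. Over all genes tested 12.8% were called lower and 13.1% higher, and 1.69% passed in either direction after the length and GC correction. The transcripts of Lhfpl3, Ptprz1 and Tmem100 had GC contents of 39.5%, 42.2% and 43.7%, and after the length and GC correction none passed. Lhfpl3 then had a log2 fold change of 0.50 (adjusted p = 0.22) and Tmem100 one of 0.38 (adjusted p = 0.28), and the value of Ptprz1 turned negative at -0.090 (adjusted p = 0.50).

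Of 9 tested genes of committed precursors and newly formed oligodendrocytes 0 passed, with a median log2 fold change of -0.11. Of the 15 mature myelin genes, 1 was higher and 1 lower, with a median of -0.09. The higher was Ermn, a cytoskeletal protein gene of myelinating cells, at 33.4 and 28.1 CPM in the control mice and 72.05 and 41.1 CPM in the surgery mice (log2 fold change 0.88, adjusted p = 0.045). The lower was Hapln2, a matrix link protein gene of the node of Ranvier, at 66.9 and 65.8 against 48.7 and 33.1 CPM (log2 fold change -0.70, adjusted p = 0.027). For both genes the surgery mice differed from each other by more than the control mice did. Neither passed after the length and GC correction, with log2 fold changes of 0.11 for Ermn (adjusted p = 0.86) and -0.40 for Hapln2 (adjusted p = 0.23).

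Among 15 regulators that promote the lineage, 2 were higher (Zfp24, a zinc finger factor needed for myelination, log2 fold change 0.55, adjusted p = 0.0073, and the deacetylase Hdac2, 0.39, adjusted p = 0.018) and 1 was lower (Smarca4, the ATPase of a chromatin remodelling complex, -0.33, adjusted p = 0.010). None of these 3 passed after the length and GC correction, with log2 fold changes of 0.10 for Zfp24, -0.068 for Hdac2, whose sign turned, and -0.12 for Smarca4 (adjusted p from 0.38 to 0.71). Among 11 genes listed as holding differentiation back, 3 were lower and 1 higher. The lower genes were Lingo1, an inhibitor of myelination (log2 fold change -0.62, adjusted p = 0.0045), the receptor gene Notch1 (-0.54, adjusted p = 0.021) and Tcf3 (-0.37, adjusted p = 0.022). Tcf3 does not do what the list's name says: it encodes an E protein, a bHLH partner that Id proteins inhibit. None of the 3 lower genes passed after the length and GC correction, with log2 fold changes of -0.33 for Lingo1, -0.30 for Notch1 and -0.043 for Tcf3 (adjusted p from 0.074 to 0.83). The higher was Id4, an inhibitor of bHLH factors, which stood at 23.2 and 30.4 CPM in the control mice and at 66.8 and 69.5 CPM in the surgery mice. Its log2 fold change of 1.35 (SE 0.13, adjusted p = 0.0043) was 0.92 with an adjusted p of 0.038 after the length and GC correction. Olig1 and Olig2, lower in the same mice, did not pass after this correction, and a link between Id4 and these 2 genes was not tested.

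The signalling families around the receptors and ligands were read in the same way. Of 6 PDGF ligand and receptor genes, Pdgfra included, 0 passed, with a median log2 fold change of -0.08. Of 23 BMP pathway genes, Bmp4 and Id4 included, 6 were higher and 1 lower, with a median of 0.18 beside 0.01 over all genes. Of all genes tested 13.1% were higher and 12.8% lower. The higher genes included the receptors Bmpr2 (log2 fold change 0.75, adjusted p = 0.0046), Bmpr1b (0.69, adjusted p = 0.0081) and Bmpr1a (0.69, adjusted p = 0.0049) as well as Id4. The lower gene, named after its value was seen, was Chrd, which encodes the BMP antagonist chordin (-0.52, adjusted p = 0.0050). Of the 23 genes 12 were highest in surgery mouse 2, as were 28.4% of all genes tested. With the length and GC correction, Id4 alone of these 23 passed. Bmpr2, Bmpr1b and Bmpr1a then had log2 fold changes of 0.11, 0.41 and 0.29, and Chrd had -0.23.

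Of 19 genes of the Wnt and TCF pathway, Tcf7l2 included, 2 were higher and 2 lower, with a median log2 fold change of -0.01. Higher were Gsk3b (0.44, adjusted p = 0.0061) and Apc (0.36, adjusted p = 0.0067), of the complex that marks beta-catenin for degradation. Lower were Ctnnb1, which encodes beta-catenin itself (-0.32, adjusted p = 0.010), and the corepressor Tle2 (-0.30, adjusted p = 0.037). None of these 4 passed after the length and GC correction, with adjusted p-values from 0.063 to 0.99. Ctnnb1 then had a log2 fold change of -0.29, close to its value before, while the values of Gsk3b, Apc and Tle2 were 0.15, 0.06 and 0.0025.

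Relatives of the 9 genes were also read. Of the Olig family of bHLH genes, the 3 tested members all passed, Olig1 and Olig2 lower and Bhlhe22, a factor of neurons, higher at 81.7 and 69.6 against 104 and 105 CPM (log2 fold change 0.46, SE 0.09, adjusted p = 0.014). All 3 have GC contents above the median of all genes, and Bhlhe22, at 51.7%, has the lowest of them. With the length and GC correction Bhlhe22 had a log2 fold change of 0.53 and an adjusted p of 0.052. Of the 3 SoxE genes, Sox10 included, 0 passed, and of 5 tested genes of the Enpp family 0 passed. Among 10 genes of choline and lysophospholipid handling, the chemistry of Enpp6, 2 were higher (the lysophospholipase gene Lypla1, log2 fold change 1.501, adjusted p = 0.0045, and Gpcpd1, 0.43, adjusted p = 0.018) and 2 were lower (Pla2g6, -0.40, adjusted p = 0.026, and Gde1, -0.34, adjusted p = 0.017). With the length and GC correction Gpcpd1, whose sign turned, stood at a log2 fold change of -0.17, Pla2g6 at -0.12 and Gde1 at -0.14, and none of the 3 passed (adjusted p from 0.24 to 0.53). Lypla1 still passed, with a log2 fold change of 1.04 (adjusted p = 0.038). It stood at 6.73 and 5.53 CPM in the control mice and 17.2 and 17.4 CPM in the surgery mice.

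Counted once each and without the 9, the genes of these lineage and signalling lists numbered 124, of which 119 were tested, 17 were higher and 10 lower. That is 22.7% called in either direction, beside 25.96% of all genes. With the length and GC correction 3 passed, Id4, Lypla1 and Enpp5, the last at a log2 fold change of -0.42.

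The genes whose pattern over the 4 mice was most like that of each of the 9 were found by the Euclidean distance of log2 CPM centred on each gene's mean, among genes of at least 1 CPM. For Olig2 they were Aes and Kcnk12 (0.04 each), for Olig1 Noc2l and Pycr1 (0.05 each), and for Cspg4 H3f3a and Nfkbid (0.01 each). For Sox10, at 0.10 and 0.12, they were Onecut1 and Fa2h, the second an enzyme gene of myelin lipid synthesis. For Bmp4 they were Mgp (0.07) and Rtp4 (0.11), and for Enpp6 9130221H12Rik (0.09). Those of Pdgfra were Pias3 and Trim71, those of Gpr17 Ier5 and Mrpl34, and those of Tcf7l2 Syt10 and Serpinf1, all at 0.04 or less.

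Counting could bear on some of these values. Whether reads were counted by strand is not given in the sources used here, and exons of Pdgfra, Olig1, Gpr17 and Bmp4 overlap those of genes on the other strand (Gm42802 and Gm42803, Gm15966, Lims2 and Gm15217), so reads of these pairs may not be told apart. Of the 75-base windows of the transcripts, 4.05% of those of Pdgfra and 3.98% of those of Olig1 also occur in another gene's transcripts. The position of Gpr17 is not reported here. The remaining genes lie at chr9:56865033-56899870 (Cspg4, + strand), chr5:75152292-75198215 (Pdgfra, + strand), chr15:79154913-79164490 (Sox10, - strand), chr14:46383520-46390669 (Bmp4, - strand), chr8:46986887-47096762 (Enpp6, + strand) and chr19:55741810-55933654 (Tcf7l2, + strand) in mm10.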

How the data were processed

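RNA of whole hippocampus from 2 control and 2 surgery mice was enriched for poly(A) and read in pairs of 150 nt. The authors mapped the reads to mm10 and deposited the counts of reads per gene and mouse without normalization. The submitters' processing notes list HISAT2 2.1.0, Bowtie2 2.2.3, TopHat2 and HTSeq 0.6.0, and the use of strand is not given in the sources used here. The table's columns of the authors' own comparison (mean signal, fold change, p-values, mark of significance) were not used.

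The test used edgeR 4.0.16 in R 4.3.3, with filterByExpr (minimum count 10), TMM, glmQLFit and glmQLFTest with condition as the only term, and Benjamini-Hochberg adjustment over 17144 genes. CPM are TMM-scaled. A call is an adjusted p under 0.05. Lengths, GC contents and overlaps come from GENCODE M21. The length and GC trends were fitted per library with mgcv 1.9.3 (basis size 8) and entered as offsets. Alternatives were DESeq2 1.42.0, limma-voom (limma 3.58.1), other scalings, filters and limits, the replicate number as a block, and leaving out each mouse. Procedures were tested on simulated data. Replicates differed beyond sampling noise, and p-values cover the spread between these mice.

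The members and gene lists were chosen with earlier results of these data known. All 9 members are named, and of each list the called genes, up to 4 by size of the log2 fold change, and for each member its 2 nearest genes, of which 1 is not reported here.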

Additional observations from a re-analysis of the deposited data

How the results depend on the processing

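With 2 mice per group and 30 to 118 counts for Bmp4, changes of the low genes were bounded only loosely. The falls of Olig2, Olig1 and Cspg4 kept their direction under every alternative run. Olig2 lost its call with the length and GC correction alone (-0.43, adjusted p = 0.077) and had it with that correction and the replicate block (-0.43, adjusted p = 0.018). Log2 fold changes of Cspg4 that missed the threshold were -0.45 with no filter on low counts, -0.16 with the length and GC correction and -0.16 with that correction and the replicate block. Those of Olig1 were -0.38 with library totals, -0.44 with no filter, -0.41 with a minimum count of 30, -0.10 with the correction and -0.11 with correction and block. Pdgfra turned to -0.0043 with DESeq2 size factors, -0.0042 with the DESeq2 test, -0.0056 with no filter, -0.048 with the correction and -0.043 with correction and block, and Sox10 to 0.16 and 0.15 under the last pair.

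Leaving out each mouse gave log2 fold changes from -0.13 to 0.15 for Pdgfra (-0.03 without surgery mouse 2), -0.55 to -0.35 for Cspg4, -0.53 to -0.050 for Gpr17, -0.61 to 0.15 for Sox10, -0.62 to -0.26 for Olig1, -0.80 to -0.63 for Olig2, -0.53 to 1.34 for Bmp4, -0.092 to 1.07 for Enpp6 (-0.01 without control mouse 2) and 0.13 to 0.74 for Tcf7l2, with the lone mouse of a group assumed to vary like the others. Members called lower then numbered 2 to 3 and higher 0 to 1, other lineage genes 4 to 21 and 13 to 19, and all genes 1207 to 2080 and 1201 to 2025.

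Members called lower numbered 1 with no filter, 0 with the correction, 1 with correction and block and 1 with the fold limits. All genes called lower numbered 1350 with no filter, 189 with the correction and 1595 with correction and block, and those called higher 1315, 100 and 756. Other lineage genes called lower numbered 5 with no filter, 1 with the correction and 9 with correction and block, and those called higher 2 with the correction and 8 with correction and block. The causes of these differences were not tested.

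The replicate numbers were shared by the groups and the difference of mouse 1 from mouse 2 in the control group correlated with that in the surgery group over 17144 genes (r = 0.22), but nothing states that a number pairs mice. With the replicate block 3 members were lower and 0 higher, as without it, 2626 and 2653 of all genes were lower and higher, and 17 other lineage genes were lower. The adjusted p of Olig1 was then 0.0055. Per length, the control levels that moved with the longest transcript were those of Pdgfra (8.58), Cspg4 (5.62) and Tcf7l2 (1.07 CPM per kb).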

Other observations

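The counts of this paragraph stand beside 13.1% of all genes called higher and 12.8% called lower. Outside the oligodendrocyte lineage, markers of newborn neurons of the dentate gyrus gave 3 higher genes and 0 lower of 5 tested. Their median log2 fold change was 0.68, and it was 0.32 after the length and GC correction, when 0 of the 5 passed. The higher genes were Sox11 (log2 fold change 0.92), Neurod1 (0.68) and Dcx (0.41). Igfbpl1 (1.42) and Mki67 (-0.03) did not pass, and Eomes and Top2a were left out by the filter on low counts. Of 8 astrocyte markers 3 were higher, among them the water channel gene Aqp4 (0.73) and the connexin gene Gja1 (0.36), and 2 were lower, Aldoc (-0.50) and Aldh1l1 (-0.49). Of 7 endothelial markers 2 were higher, Slco1a4 (0.87) and Flt1 (0.41), and 6 of the 7 were highest in surgery mouse 2. Of 8 microglial markers 1 was higher, the purine receptor gene P2ry12 (0.84). Of 7 neuronal markers 2 were higher, Map2 (0.53) and Gad2 (0.32), and 1 was lower, Slc17a7 (-0.39). Of 6 choroid plexus markers 0 passed. Of the 6 hippocampal neuron genes 2 were higher, Neurod6 (0.53) and Zbtb20 (0.44), and 2 were lower, Wfs1 (-0.70) and Fibcd1 (-0.64). After the length and GC correction 0 genes of the astrocyte, endothelial, microglial, neuronal and hippocampal lists passed, beside 1.69% of all genes.

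Surgery mouse 2 stood apart for single genes of the meninges and of BMP signalling, chosen after their values were seen. Slc6a13, a transporter gene of meningeal fibroblasts, stood at 5.57 and 5.74 CPM in the control mice and at 6.90 and 34.9 CPM in the surgery mice. Bmp7 stood at 7.78 and 14.01 CPM in the control mice and at 7.40 and 32.4 CPM in the surgery mice. Neither passed the test, with adjusted p-values of 0.089 and 0.35.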
